A study of Mus musculus with 77 samples.

Results

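The genes described here are 9 autosomal transcription factor genes of the myeloid and erythroid lineages, set in splenic B cells, where the cells' own lineage is a different one. They were taken by name: Cebpa, Cebpb, Cebpd and Cebpe of the CCAAT/enhancer-binding protein family, and Gata2, Klf1, Tal1, Gfi1b and Nfe2 of the stem cell, megakaryocyte and erythroid programmes. They are 9 of 33073 autosomal protein-coding and long non-coding genes that were measured in the same way. The rule that names them uses no measured value, but the members were chosen with earlier results of these data known.

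The data were CUT&RUN peak lists, 1 list from each of 77 libraries. CUT&RUN tethers a nuclease to an antibody and releases the DNA around the marked nucleosomes. CD23+ B cells, which are mostly follicular B cells, were isolated from spleens of female mice with a biotinylated antibody to CD23. The antibodies were to H3K27me3, H2AK119Ub and H3K27ac.

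The mice carried either a floxed Xist gene or no floxed gene. Xist is the RNA that silences 1 X chromosome in female cells, and Cre recombinase removes the floxed gene. In the mb1-cre system, Xist fl/fl ; mb1-cre+ animals were set against WT (mb1-cre+) animals, so both genotypes carried the Cre, which acts from early in the B lineage. In the TAT-Cre system, cells of Xist fl/fl animals were set against cells of WT animals. Cells cultured for 24 h had first been given 80 µg of cell-permeant TAT-Cre for 45 min. The 24 h cells of both systems were cultured with CpG DNA at 1 µM, which Toll-like receptor 9 recognises, and the 0 h cells were naive. In the TAT-Cre system the 0 h cells had no TAT-Cre, so a difference between 24 h and 0 h there holds both the enzyme and CpG. Mouse ages are not given in the labels. Each combination of mark, system, genotype and time had 3 biological replicates. The H3K27me3 groups of the mb1-cre system were larger, with 4 Xist fl/fl and 4 WT libraries at 24 h, and 5 Xist fl/fl and 4 WT libraries at 0 h. The lists hold no RNA measurement, so the removal of Xist was not checked here.

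H3K27me3 is placed by Polycomb repressive complex 2 and H2AK119Ub by Polycomb repressive complex 1, and both are found at developmental regulators that a cell does not use. H3K27ac marks active promoters and enhancers. C/EBPα drives granulocyte and monocyte differentiation and can turn B cells into macrophage-like cells when forced on. GATA2 and TAL1 act in stem cells and progenitors, GFI1B and NFE2 in megakaryocytes and red cell precursors, and KLF1 turns on adult globin genes.

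Each gene was measured over its RefSeq body with 2 kb on either side, as the percent of that window lying under peaks. This is a measure of how far peaks reach, not of how high the signal is. In bulk chromatin, more cells carrying a mark and more mark per cell cannot be told apart. In mm10, Cebpa spans chr7:35119293-35121928, Cebpb chr2:167688915-167690432, Cebpd chr16:15887286-15889545, Cebpe chr14:54710363-54712174, Gata2 chr6:88193891-88207032, Klf1 chr8:84901982-84905291, Tal1 chr4:115056426-115071755, Gfi1b chr2:28609450-28621982 and Nfe2 chr15:103248212-103258403. Some windows are shared with a neighbour: Spidr at Cebpd, Hnrnpa1 at Nfe2, and long non-coding genes at Cebpb, Gata2, Klf1, Tal1 and Gfi1b.

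The promoters of 4 members show how different the DNA under these marks is. Each line gives the 250 bases before the RefSeq start, 5′ to 3′ on the gene's strand in GRCm38.p6 (mm10), with every CG dinucleotide in capitals. They are shown because Cebpb and Klf1 shared 1 chromatin pattern, because H2AK119Ub at Gata2 did not overlap between times, and because Gfi1b was the member with its own H3K27ac peak. Cebpb lies at chr2:167688665-167688914 on the plus strand, Klf1 at chr8:84901732-84901981 on the plus strand, Gata2 at chr6:88193641-88193890 on the plus strand, and Gfi1b at chr2:28621983-28622232 on the minus strand.
Cebpb: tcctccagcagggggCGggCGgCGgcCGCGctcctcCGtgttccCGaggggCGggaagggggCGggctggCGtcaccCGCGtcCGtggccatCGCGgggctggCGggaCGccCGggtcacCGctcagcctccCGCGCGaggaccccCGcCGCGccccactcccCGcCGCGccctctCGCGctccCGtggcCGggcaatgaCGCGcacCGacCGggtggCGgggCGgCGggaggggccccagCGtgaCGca
Klf1: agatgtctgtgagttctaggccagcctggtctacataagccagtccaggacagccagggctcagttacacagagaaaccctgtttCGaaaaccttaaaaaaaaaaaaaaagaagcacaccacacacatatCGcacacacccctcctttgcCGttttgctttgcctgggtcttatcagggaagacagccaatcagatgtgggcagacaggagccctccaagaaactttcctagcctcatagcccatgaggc
Gata2: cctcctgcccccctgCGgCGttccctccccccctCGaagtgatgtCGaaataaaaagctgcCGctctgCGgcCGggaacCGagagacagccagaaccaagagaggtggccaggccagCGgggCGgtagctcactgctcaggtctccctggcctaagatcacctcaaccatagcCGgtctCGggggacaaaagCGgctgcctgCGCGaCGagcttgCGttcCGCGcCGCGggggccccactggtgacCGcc
Gfi1b: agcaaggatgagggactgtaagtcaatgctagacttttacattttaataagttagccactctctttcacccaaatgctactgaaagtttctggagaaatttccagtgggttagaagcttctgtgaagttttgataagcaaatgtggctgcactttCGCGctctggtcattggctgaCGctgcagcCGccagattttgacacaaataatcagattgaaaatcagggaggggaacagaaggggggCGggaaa

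The Cebpb promoter held 41 CG dinucleotides, a number that 1.09% of 32851 RefSeq promoters of this length reached. The Gata2 promoter held 22, as did that of Cebpa, and 14.8% of promoters had at least as many. Klf1 had 3 and Gfi1b 5, against a median of 6 over all promoters. The annotated first start of Tal1 had 6 CG dinucleotides and its second start 16. At 24 h the start base lay under H2AK119Ub in 12 of 12 libraries at the CG-rich Cebpb promoter and in 11 of 12 at the CG-poor Klf1 promoter. Cebpd, Cebpe and Nfe2 were not in the promoter table.

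List length has to be read beside every result. H3K27me3 lists held 3981 to 15150 peaks at 24 h (median 8697.5) and 1955 to 19074 at 0 h (median 5154). H2AK119Ub lists held 9334 to 37328 peaks at 24 h (median 25206) and 2004 to 40688 at 0 h (median 17796.5), and H3K27ac lists 3669 to 10215 at 24 h (median 7884.5) and 1336 to 10393 at 0 h (median 3183). Lists of under 3000 peaks occurred only at 0 h: 3 for H3K27me3, 4 for H2AK119Ub and 3 for H3K27ac. Among fixed markers, all 12 B cell genes had an H3K27ac peak in every library and an H3K27me3 peak in none. H2AK119Ub was found at 4 to 10 of these B cell genes at 24 h (median 9) and 0 to 4 at 0 h (median 1.5), and at 0 to 6 of 10 housekeeping genes at 24 h (median 3) and 0 to 2 at 0 h (median 0). Of 10 myeloid markers, 0 to 2 had H3K27ac at 24 h and 0 at 0 h, and of 9 matched erythroid markers 1 to 2 at 24 h and 0 to 1 at 0 h. At 24 h, 8 of the myeloid and 7 of the erythroid markers had H3K27ac in no library.

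H2AK119Ub was the mark most of these genes had in common. At 24 h, 8 to 9 of the 9 genes had an H2AK119Ub peak in each library, and at 0 h 3 to 9 (median 8). Among all protein-coding genes the share was 33.0 to 57.3% at 24 h (median 52.2%) and 9.73 to 54.2% at 0 h (median 35.4%). H3K27me3 was found at 3 to 6 of the 9 at each time, with a median of 5. The median share of protein-coding genes was 26.2% at 24 h and 20.6% at 0 h. H3K27ac was found at 0 to 2 of the 9 at 24 h and 0 to 1 at 0 h. The median share of protein-coding genes there was 28.4% at 24 h and 12.8% at 0 h. Of the 9 genes, 8 fell into 2 patterns. Tal1, Gata2, Cebpa, Cebpd and Nfe2 had H3K27me3 and H2AK119Ub peaks each in at least 50% of libraries, as did 15.8% of all genes. Cebpb, Klf1 and Gfi1b had H2AK119Ub in every 24 h library and no H3K27me3 peak in any library, as did 4.15% of all genes. Cebpe was in neither pattern and had H2AK119Ub only, in part of the libraries, apart from an H3K27me3 peak in 1 of 14 libraries at 24 h and 1 of 15 at 0 h. Neither of those H3K27me3 peaks reached the gene body.

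**Figure D1:**
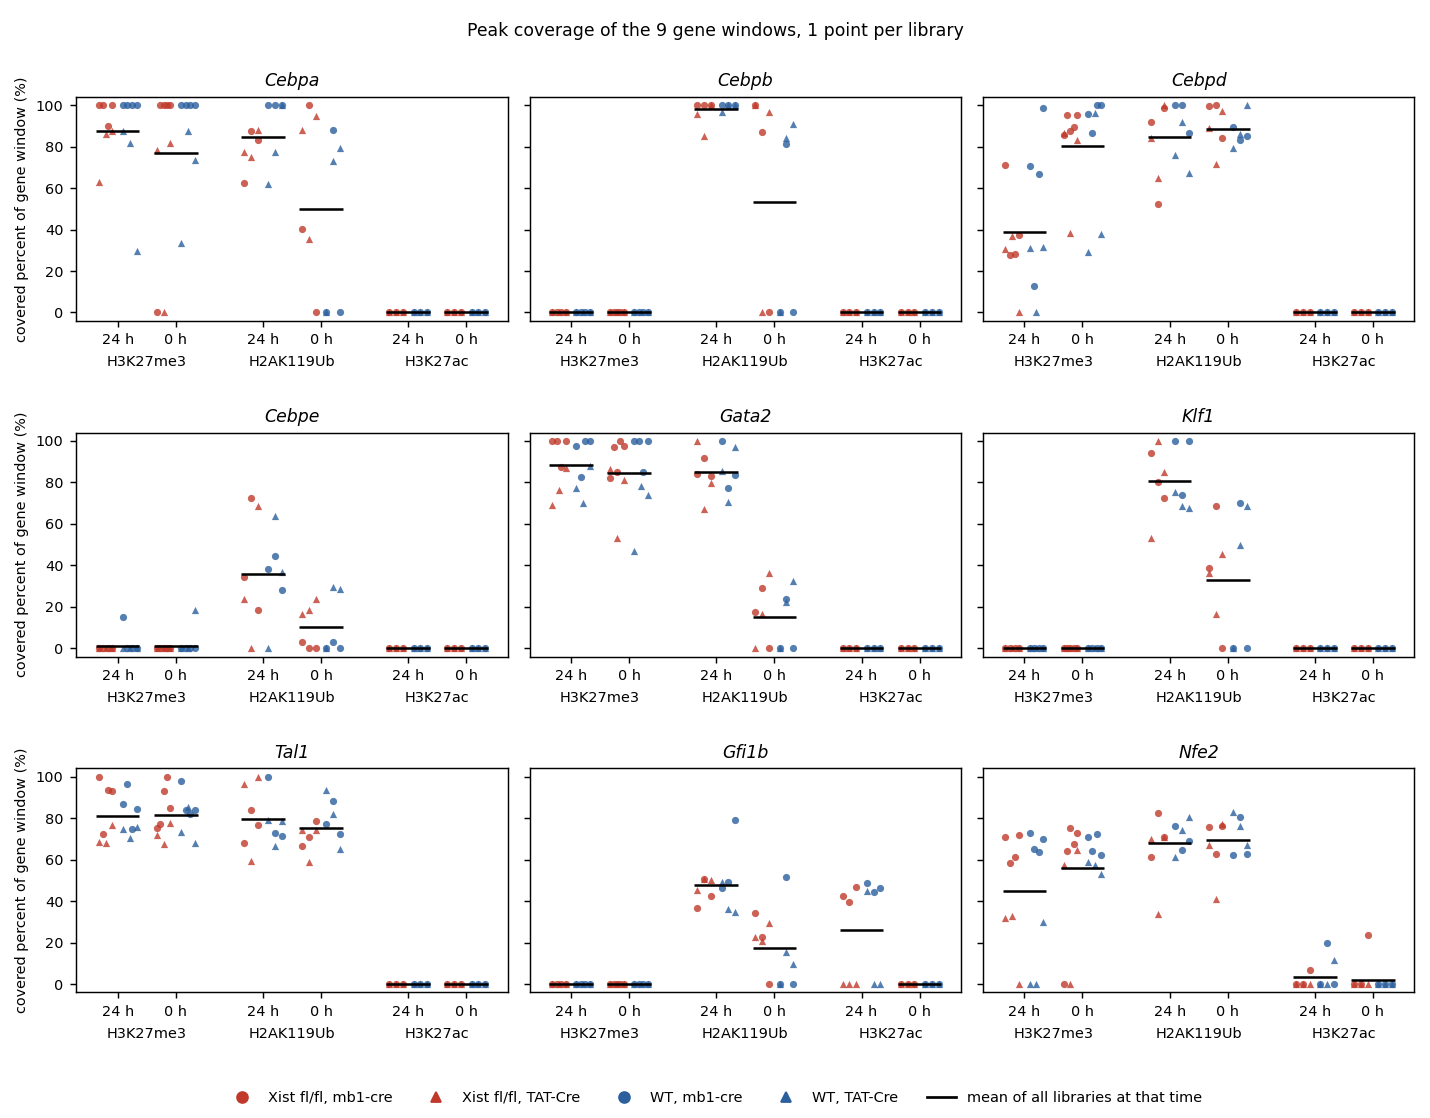
Percent of each gene window under peaks, by library, for the 9 genes and the 3 marks, with 24 h left of 0 h. Points are libraries, and lines are means of all libraries at a time. Gata2 and Tal1 sit high for H3K27me3 at both times, and Cebpb, Klf1 and Gfi1b lie at 0 for H3K27me3 while being covered by H2AK119Ub at 24 h.

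Tal1, a partner of GATA and LIM-domain proteins in blood stem cells, was the steadiest of the 9. H3K27me3 covered 81.1 ± 11% of its window at 24 h (SD, n = 14) and 81.5 ± 9.90% at 0 h (SD, n = 15). H2AK119Ub covered 79.4 ± 13.4% at 24 h and 75.2 ± 9.80% at 0 h (SD, n = 12 each). Both marks were present in every library, including the shortest lists. In regions found in at least 50% of a group's libraries, the marks lay together over 68.0 to 76.7% of the window in the 24 h groups and 71.0 to 77.2% in the 0 h groups. The widest H2AK119Ub peak on Tal1 had a median of 22.02 kb at 24 h and 22.34 kb at 0 h.

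Tal1 also shows that coverage and signal share are different quantities. Its share of all H2AK119Ub signal on the autosomes was 190 ± 33.1 ppm at 24 h and 358 ± 145 ppm at 0 h, while coverage differed by 4.20 ± 4.98 percentage points (24 h minus 0 h, SE). A share is relative to all peaks of its list, whose number differed between libraries. On lists trimmed to equal length, as described below, the log2 share differed by -0.152 ± 0.085 (24 h minus 0 h, SE). It was not called there (limma with Benjamini-Hochberg adjustment, adjusted p = 0.13), where 47.4% of 5326 genes were called. How much of the difference in share list length makes up was not tested.

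Cebpa, the myeloid master regulator, had H3K27me3 over 87.5 ± 19.8% of its window at 24 h and 77.0 ± 36.0% at 0 h. Its H2AK119Ub coverage was 84.4 ± 14% at 24 h and 49.9 ± 41.7% at 0 h. Values at 0 h moved with list length. Cebpa was at 0 in each of the 4 H2AK119Ub lists of under 3000 peaks and between 35.6 and 100% in the 8 longer lists at 0 h.

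Nfe2, the p45 subunit of the factor that drives platelet release, carried H2AK119Ub over 67.9 ± 12.6% of its window at 24 h and 69.3 ± 11.5% at 0 h. H3K27me3 at Nfe2 is given by system. At 24 h, TAT-Cre libraries had 32.1, 32.6 and 0% in Xist fl/fl cells and 0, 0 and 30.2% in WT cells, whereas the 8 mb1-cre libraries had 58.2 to 72.8%. At 0 h, 5 of 6 TAT-Cre libraries had 53.1 to 64.7% and 1 Xist fl/fl library had 0. The mb1-cre libraries at 0 h had 62.4 to 75.3%, apart from 1 at 0. Every TAT-Cre library at 24 h thus lay below every mb1-cre library at 24 h, as was so for 20.4% of 11374 genes. The 24 h minus 0 h difference was 37.9 ± 14.7 percentage points lower in TAT-Cre than in mb1-cre cells on the deposited lists (limma with Benjamini-Hochberg adjustment, adjusted p = 0.067, not called), where 20.0% of 11374 genes were called. Without the 3 lists of under 3000 peaks the difference was -40.5 ± 7.9 points (adjusted p = 0.0024), where 19.5% of genes were called. Between times, Nfe2 differed by -32.8 ± 11.2 points in TAT-Cre cells alone (adjusted p = 0.36) and by 5.05 ± 9.46 points in mb1-cre cells alone (adjusted p = 0.72). Over both systems the difference was -13.9 ± 7.3 points (adjusted p = 0.35), and -22.8 ± 4.0 points without the 3 short lists (adjusted p = 0.0020), where 3.37% of genes were called. H3K27me3 lists at 24 h held 3981 to 10179 peaks in the TAT-Cre system (median 6113.5) and 7972 to 15150 in the mb1-cre system (median 12722), and covered a median of 53.3 Mb of the autosomes in TAT-Cre and 156 Mb in mb1-cre cells. Nfe2 had no H3K27me3 peak when each list was trimmed to its 1955 strongest peaks, the length of the shortest, so the part of list length in this difference was not tested.

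Cebpd, a C/EBP induced by inflammatory signals in many cells, had less H3K27me3 after culture. The mb1-cre Xist fl/fl libraries had 71.0, 27.9, 28.0 and 37.6% of the window covered at 24 h, against 85.7, 95.1, 87.3, 89.4 and 95.4% at 0 h. The mb1-cre WT libraries had 70.7, 12.7, 66.9 and 98.5% at 24 h, against 95.6, 86.6, 100 and 100% at 0 h. In this system 1 WT library at 24 h lay within the range at 0 h, and the other 7 lay below it. The TAT-Cre Xist fl/fl libraries had 30.4, 36.9 and 0% at 24 h, against 86.7, 38.5 and 83.3% at 0 h. The TAT-Cre WT libraries had 30.9, 0 and 31.5% at 24 h, against 29.1, 96.3 and 38.0% at 0 h, so that there the times overlapped.

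To compare times on lists of equal length, each list was trimmed to its strongest peaks by total signal, as many as the shortest list of the mark held (1955 for H3K27me3, 2004 for H2AK119Ub and 1336 for H3K27ac). On such lists a gene counts as covered only where its peaks rank high among the others of the library. On these lists H3K27me3 at Cebpd fell by 49.8 ± 10.4 percentage points (SE; limma with Benjamini-Hochberg adjustment over 4846 genes, adjusted p = 0.0086). Cebpd was the 1 of 4 members tested that was called, and 2.17% of all tested genes were called, 1.16% as lower. On the deposited lists it fell by 40.9 ± 8.4 points (adjusted p = 0.0049), 1 of 5 members tested, where 4.26% of genes were called. By presence, the exact test called 0 of 3 members on the trimmed lists and 0 of 1 on the deposited lists, against 1.30% and 0% of genes. The limma call rests in part on how 1 library is grouped: with replicate 5 of the mb1-cre Xist fl/fl 0 h group placed at 24 h, as its treatment entry has it, the difference was -45.5 ± 11.8 points on the trimmed lists (adjusted p = 0.060).

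The H3K27me3 domain at Cebpd ended earlier after culture. Positions here count from the lower-coordinate end of the gene, because the table used gives no strand for Cebpd. The last edge of H3K27me3 lay at a median of 0.14 kb at 24 h and 3.60 kb at 0 h, on a gene of 2.26 kb. H3K27me3 reached past the far end of the gene in 3 of 8 mb1-cre libraries at 24 h, against 9 of 9 at 0 h, and in 0 of the 4 TAT-Cre libraries with a peak at 24 h, against 4 of 6 at 0 h. H2AK119Ub reached past that end in 11 of 12 libraries at 24 h and 12 of 12 at 0 h. Cebpd coverage by H2AK119Ub was 84.5 ± 16% at 24 h and 88.7 ± 9.07% at 0 h. The part of the window under H2AK119Ub without H3K27me3 therefore had a median over groups of 52.0% at 24 h and 8.31% at 0 h.

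**Figure D2:**
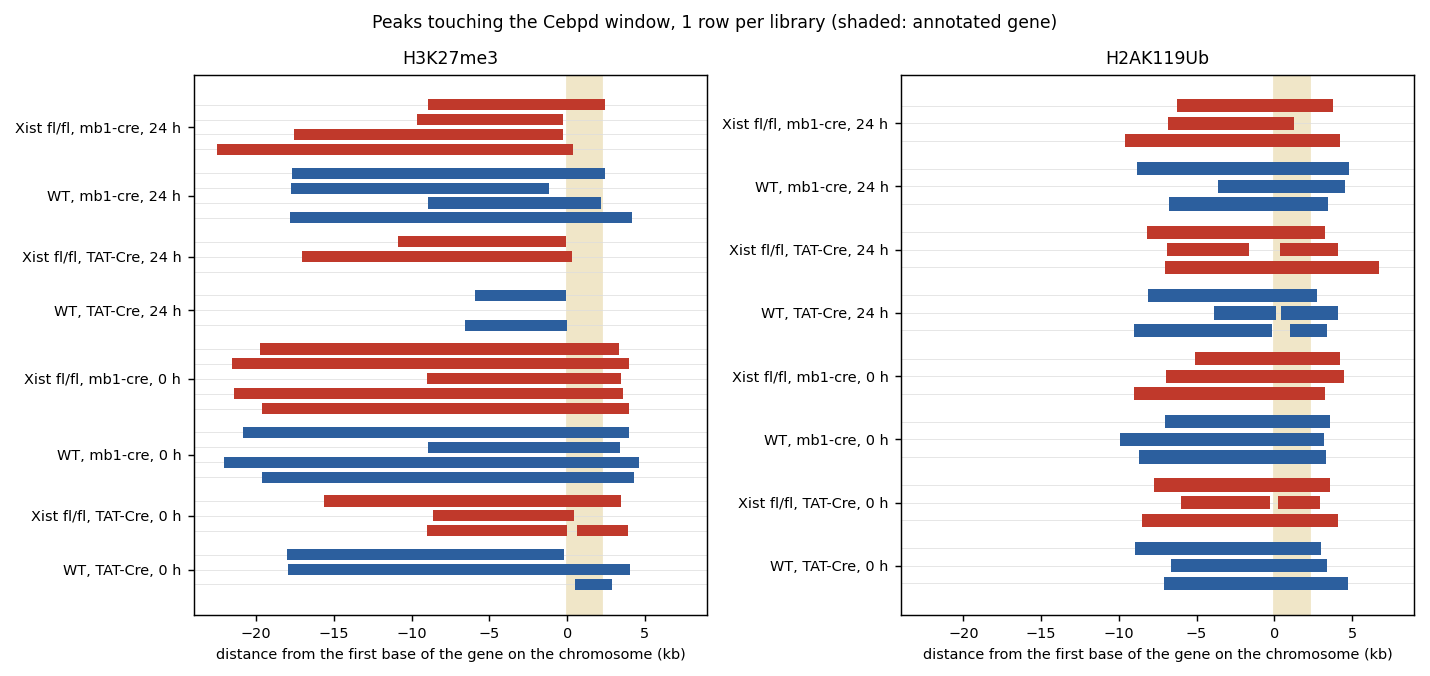
Peaks of H3K27me3 (left) and H2AK119Ub (right) that touch the Cebpd window, 1 row per library, against the distance in kb from the lower-coordinate end of the gene, which is shaded. H3K27me3 covered 38.8 ± 28.5% of the window at 24 h and 80.5 ± 24.1% at 0 h, while H2AK119Ub covered 84.5 ± 16% at 24 h and 88.7 ± 9.07% at 0 h (SD).

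Gata2, a factor that maintains blood stem cells and progenitors, had H3K27me3 at both times and wide H2AK119Ub at 24 h. H3K27me3 covered 88.2 ± 11.7% of its window at 24 h and 84.5 ± 16.6% at 0 h, in every library. In the mb1-cre system, H2AK119Ub covered 83.9, 91.9 and 83.3% in Xist fl/fl libraries at 24 h, against 17.4, 29.1 and 0% at 0 h. The mb1-cre WT cells had 100, 77.1 and 83.5% at 24 h, against 0, 23.6 and 0% at 0 h. All 6 mb1-cre libraries at 24 h lay above all 6 at 0 h. The TAT-Cre Xist fl/fl cells had 100, 67.3 and 79.5% at 24 h, against 0, 16.5 and 36.3% at 0 h. The TAT-Cre WT cells had 85.6, 70.6 and 97.1% at 24 h, against 0, 22.5 and 32.7% at 0 h.

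Over both systems the 12 libraries at 24 h (67.3 to 100%) did not overlap the 12 at 0 h (0 to 36.3%). Gata2 was the 1 member for which this held, and it held for 1.79% of 20171 genes. The widest H2AK119Ub peak on Gata2 was 6.88 to 28.7 kb at 24 h (median 21.45 kb, 12 of 12 libraries) and 2.18 to 5.83 kb at 0 h (median 3.85 kb, 7 of 12 libraries). The annotated start base, beside the promoter printed above, lay under H2AK119Ub in 12 of 12 libraries at 24 h and 2 of 12 at 0 h. Its share of autosomal H2AK119Ub signal was 150 ± 37.8 ppm at 24 h and 15.4 ± 15 ppm at 0 h. H3K27me3 and H2AK119Ub lay together over a median of 83.4% of the window in the 24 h groups and 2.57% in the 0 h groups.

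**Figure D3:**
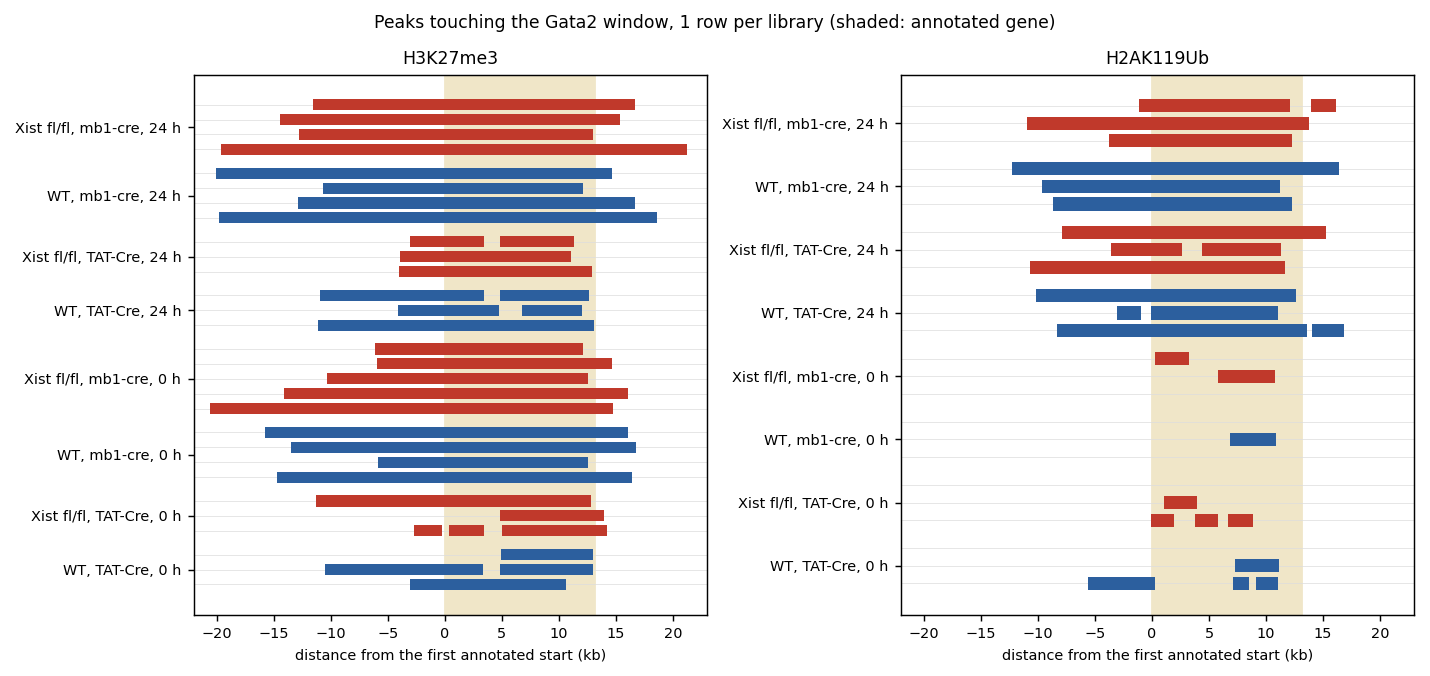
Peaks of H3K27me3 (left) and H2AK119Ub (right) that touch the Gata2 window, 1 row per library, against the distance in kb from the first annotated start, with the gene shaded. H2AK119Ub peaks cover 67.3 to 100% of the window at 24 h and 0 to 36.3% at 0 h, whereas H3K27me3 covers most of it at both times.

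Cebpb, which takes part in macrophage activation and emergency granulopoiesis, had H2AK119Ub and neither of the other marks. It was covered over 85.2 to 100% of its window at 24 h (median 100%), with 9 of 12 libraries fully covered. At 0 h, 7 of 12 libraries had a peak, and those had 81.3 to 100%. The zeros at 0 h were the 4 lists of under 3000 peaks and 1 longer TAT-Cre Xist fl/fl list. The widest peak on Cebpb was 4.61 to 52 kb at 24 h (median 19.8 kb) and 2.36 to 8.53 kb at 0 h (median 5.13 kb). The ranges of width overlapped and were not tested. Presence on the deposited lists, 12 of 12 libraries at 24 h and 7 of 12 at 0 h, was not called by the exact stratified permutation test (p = 0.05, adjusted p = 0.16), where 11.5% of genes were called.

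Klf1, the red cell factor, had H2AK119Ub over 80.9 ± 15.2% of its window at 24 h (53.2 to 100%) and 32.9 ± 28.7% at 0 h (0 to 70.2%). In the 8 longer lists at 0 h it had 16.7 to 70.2%, with a median of 47.6%. Gfi1b, a repressor needed for red cells and platelets, had 47.6 ± 11.5% at 24 h (35.0 to 79.0%) and 17.3 ± 16.4% at 0 h (0 to 51.7%). In the 8 longer lists at 0 h Gfi1b had 9.61 to 51.7%. The ranges of both genes overlapped between times. Cebpe, which acts late in granulocyte maturation, had 35.8 ± 24.1% at 24 h and 10.2 ± 12.1% at 0 h, and lacked a peak in 2 TAT-Cre libraries at 24 h.

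On the trimmed lists, 5 of 8 members tested were called for H2AK119Ub between times, 4 higher and 1 lower at 24 h. The background was high: 39.4% of 5326 genes were called, 24.3% as higher and 15.1% as lower. Cebpb rose by 83.0 ± 8.3 percentage points (limma with Benjamini-Hochberg adjustment, adjusted p = 6.1e-07), Gata2 by 77.8 ± 8.1 (adjusted p = 1.1e-06), Klf1 by 44.8 ± 13.3 (adjusted p = 0.014) and Gfi1b by 18.0 ± 6.0 (adjusted p = 0.025). On these lists the 4 had a peak in 0 of 12 libraries at 0 h, and in 10, 11, 7 and 5 of 12 at 24 h. They thus passed the filter of 3 libraries only through 24 h libraries and could only be called as higher. The same held for Cebpa, with 3 of 12 at 24 h and 0 of 12 at 0 h, which was not called. Cebpd fell by 46.5 ± 14.7 points (limma, adjusted p = 0.020). On the deposited lists the Cebpd difference was -4.3 ± 5.3 points (adjusted p = 0.55), so its fall was one of rank, seen on the trimmed lists. With only the upper 50% of peaks by highest signal, the Cebpd difference was -18.3 ± 16.9 points and was not called (limma, adjusted p = 0.38). By presence of a peak, the exact stratified permutation test called 3 of 6 members on the trimmed lists and 0 of 6 on the deposited lists, against 29.0% and 11.5% of genes. The median member differed by 20.98 points and the median of all tested genes by 3.13. Members that could only rise enter the first of these medians, so no conclusion is drawn from it.

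On the deposited lists, 6 of 9 members were called, all higher at 24 h, where 36.5% of 20171 genes were called and 34.1% as higher. They were Gata2 at 70.1 ± 6.0 points (limma with Benjamini-Hochberg adjustment, adjusted p = 2.2e-07), Klf1 at 48.0 ± 10.0, Cebpb at 44.9 ± 14.2, Cebpa at 34.5 ± 12.7, Gfi1b at 30.3 ± 6.2 and Cebpe at 25.6 ± 8.2. Their adjusted p-values lay between 2.2e-07 and 0.041. The call on Cebpa was lost in 15 of 24 fits that left out 1 library. Tal1, Nfe2 and Cebpd, which had H2AK119Ub in every library at both times, were not called.

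The fits were repeated without the 4 H2AK119Ub lists of under 3000 peaks. On the trimmed lists Cebpb and Gata2 were then called, 2 of the 8 tested, where 26.9% of genes were called. Klf1 and Gfi1b kept differences of 44.8 and 18.0 points there, with larger errors of 17.9 and 8.01 points (limma with Benjamini-Hochberg adjustment, adjusted p = 0.082 and 0.11). Cebpd differed by -34.4 ± 17.2 points there and was no longer called (limma, adjusted p = 0.15). On the deposited lists Gata2, at 62.0 points, Klf1, at 26.9, and Gfi1b, at 18.3, were called, where 21.4% of genes were called. Cebpb then differed by 16.2 points (adjusted p = 0.28). Gata2 was the member called under each of these 4 choices. In the fits on trimmed lists it could only be called as higher, so those calls are no separate support.

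**Figure D4:**
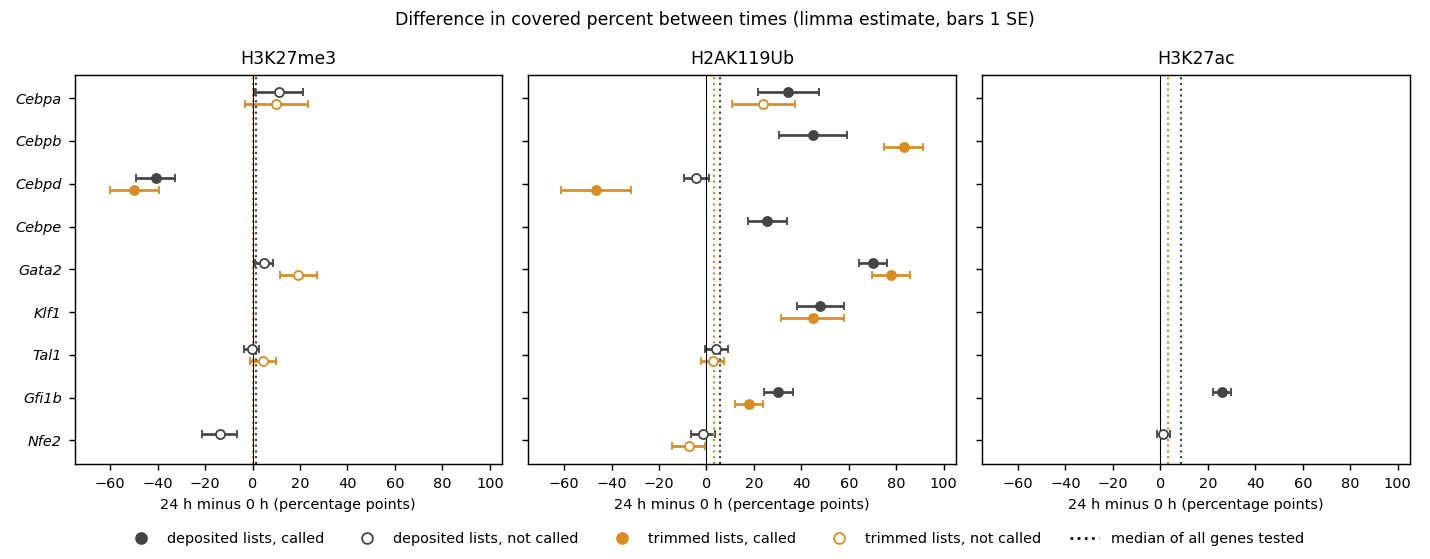
Difference in coverage between 24 h and 0 h for each gene and mark, in percentage points with bars of 1 SE, on trimmed and deposited lists. Filled points were called, and dotted lines give the median of all genes tested. Gata2 lies at 77.8 and 70.1 points for H2AK119Ub, and Cebpd at -49.8 and -40.9 for H3K27me3.

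H3K27ac was near absent from the 9 genes. Cebpa, Cebpb, Cebpd, Cebpe, Gata2, Klf1 and Tal1 had no H3K27ac peak in any of the 24 libraries, as was so for 64.9% of all genes. Gfi1b had a peak at its start in 7 of 12 libraries at 24 h and 0 of 12 at 0 h. In the mb1-cre system all 6 libraries at 24 h had it, with 42.5, 39.8 and 46.8% of the window covered in Xist fl/fl cells and 48.9, 44.2 and 46.6% in WT cells. In the TAT-Cre system 1 WT library of 6 had it at 24 h, with 44.7%. When present, the Gfi1b peak was of nearly the same size in each library.

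The Gfi1b H3K27ac peak began 1.91 to 3.14 kb before the annotated start and ended 4.58 to 6.08 kb after it, so it lay over the promoter printed above. It was 6.66 to 8.84 kb wide. In the mb1-cre groups it lay on the same stretch as H2AK119Ub, the marks sharing up to 46.6% of the window, and there was no H3K27me3 there. On the deposited lists the 24 h minus 0 h difference at Gfi1b was 26.1 ± 3.7 points (limma with Benjamini-Hochberg adjustment, adjusted p = 2.0e-05), 1 of 2 members tested, where 54.4% of 9542 genes were called. By presence of a peak, an exact stratified permutation test gave p = 0.0025 (adjusted p = 0.016), where 32.2% of genes were called. With 0 of 12 libraries at 0 h, Gfi1b passed the filter of 3 libraries only through 24 h libraries. It could therefore only be called as higher in these tests. On the trimmed lists no member had H3K27ac in at least 3 libraries, and none was tested.

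The Gfi1b difference was smaller in TAT-Cre than in mb1-cre cells by 37.3 ± 7.5 points (limma with Benjamini-Hochberg adjustment, adjusted p = 0.0047), where 9.64% of genes were called, 9.10% as lower. It was 7.5 ± 5.3 points in TAT-Cre cells alone (adjusted p = 0.40) and 44.8 ± 5.3 in mb1-cre cells alone. H3K27ac lists at 24 h held 3669 to 10009 peaks in the TAT-Cre system (median 5850) and 7409 to 10215 in the mb1-cre system (median 8868). The part of list length in the difference was not tested. Gfi1b entered this test through the 6 mb1-cre libraries and 1 TAT-Cre library that had the peak at 24 h. Nfe2 had H3K27ac in 3 of 12 libraries at 24 h and 1 of 12 at 0 h. These were the ends of peaks 11.6 to 13.8 kb wide that came in from the side where the coordinates are lower, and Hnrnpa1, an RNA-binding protein gene of most cells, is the gene that shares that window.

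**Figure D5:**
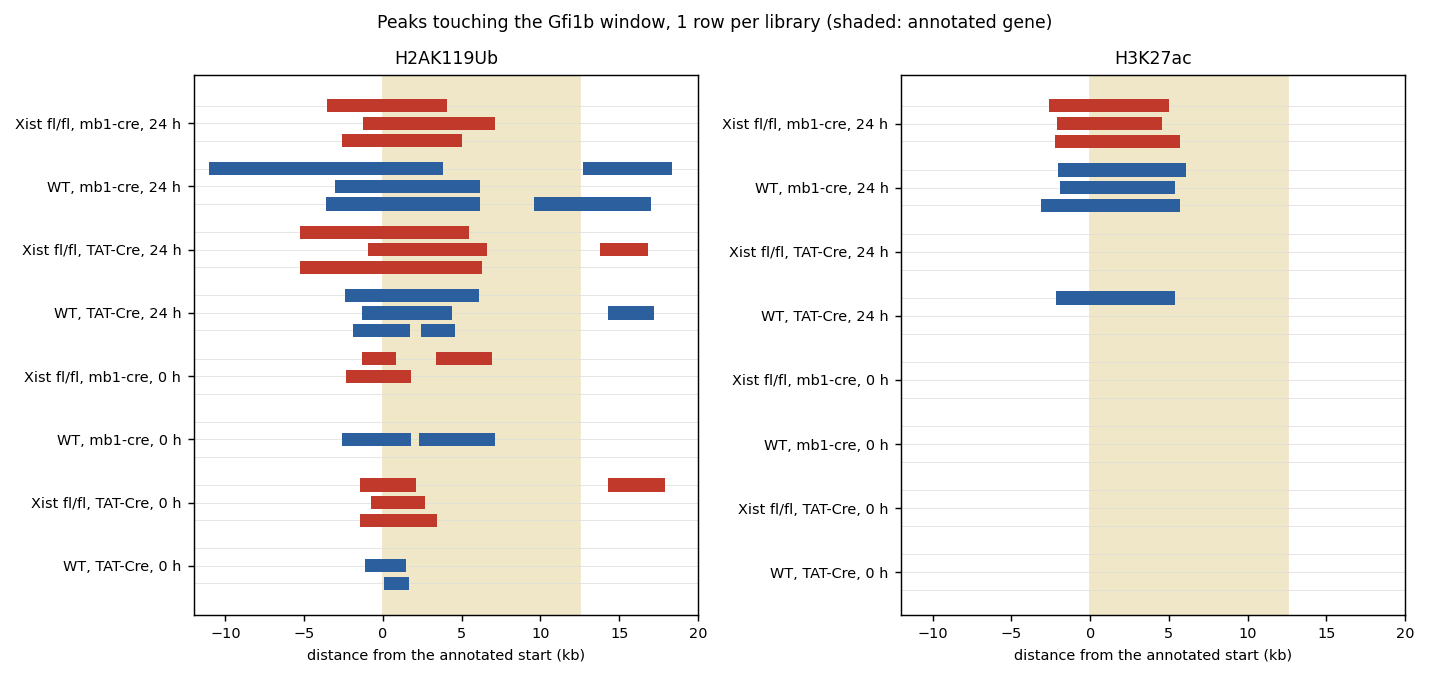
Peaks of H2AK119Ub (left) and H3K27ac (right) that touch the Gfi1b window, 1 row per library, against the distance in kb from the annotated start, with the gene shaded. H3K27ac peaks, 6.66 to 8.84 kb wide, appear in the 6 mb1-cre libraries and 1 TAT-Cre library at 24 h.

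Between genotypes no member was called. The contrast averaged Xist fl/fl minus WT over the mb1-cre cells at 0 h and 24 h and the TAT-Cre cells at 24 h. With limma and Benjamini-Hochberg adjustment, 0 of 5 members were called for H3K27me3, 0 of 9 for H2AK119Ub and 0 of 2 for H3K27ac, where 0.0352%, 0.0942% and 0.503% of all tested genes were called. At an unadjusted p below 0.05 the count of members was 0 for each mark. Among all tested genes it was 443 of 11374 for H3K27me3, 1119 of 20171 for H2AK119Ub and 1332 of 9542 for H3K27ac. The exact test of presence called 0 of 1, 0 of 6 and 0 of 2 members. It called 0% of all tested genes for each mark, so it could not set the members apart. The lowest unadjusted p on these deposited lists was 0.17, for H3K27ac at Gfi1b, which differed by -6.1 ± 4.3 points. On the trimmed lists Cebpb H2AK119Ub differed by -21.8 ± 9.6 points (limma, unadjusted p = 0.036, adjusted p = 0.70). There, 347 of 5326 genes had an unadjusted p below 0.05. H2AK119Ub at Gata2 covered 61.4 ± 36.3% in Xist fl/fl libraries and 59.7 ± 40.5% in WT libraries (SD, n = 9 each), a difference of 1.66 ± 6.90 points. H3K27me3 at Gata2 covered 90.1 ± 10.6% in 12 Xist fl/fl libraries and 90.9 ± 10.9% in 11 WT libraries. The standard errors were 3.08 to 16.4 points over the members. Differences larger than 1 standard error could also be missed, more so after adjustment over all tested genes.

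In the TAT-Cre cells at 0 h, where no Cre had been given, 0 members were called for any mark, against 0%, 0.00992% and 0.0419% of all genes for H3K27me3, H2AK119Ub and H3K27ac, and 0 had an unadjusted p below 0.05. Among all tested genes, 200 of 11374 had an unadjusted p below 0.05 there for H3K27me3, 235 of 20171 for H2AK119Ub and 220 of 9542 for H3K27ac. Whether the effect of time differed between genotypes was tested on the trimmed lists, with 0 members called of 4 for H3K27me3 and of 8 for H2AK119Ub, against 0.124% and 0.0751% of genes. The count of members at an unadjusted p below 0.05 was 0 for both, against 160 of 4846 and 288 of 5326 genes. Whether the effect of time differed between systems gave 0 members as well, against 0.578% and 0.413% of genes. There, 1 member had an unadjusted p below 0.05, Gata2 for H3K27me3 at 35.5 ± 15.9 points. Of all genes, 588 of 4846 had such a p for H3K27me3 and 388 of 5326 for H2AK119Ub. On the deposited lists the Gata2 difference was 6.2 ± 7.7 points (limma, unadjusted p = 0.43). For both the genotype and the system difference, Cebpb H2AK119Ub was called when TAT-Cre Xist fl/fl replicate 3 at 24 h was left out. Over the fits that left out 1 library, 2 to 20 genes were called for the genotype difference and 15 to 68 for the system difference. The genotype difference at Cebpb was then -49.4 ± 4.6 points, against -32.8 ± 16.6 with all libraries. The system difference was -50.6 ± 4.6, against -33.9 ± 16.6. On the deposited lists with all libraries they were -23.8 ± 28.5 and -20.9 ± 28.5 points, and neither was called. On the trimmed lists Cebpb had a peak in 10 of 12 libraries at 24 h and 0 of 12 at 0 h. No member could be tested for H3K27ac in these 2 comparisons on the trimmed lists, where 0.573% and 3.52% of genes were called.

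Other genes of the same programmes were followed as lists. Of 38 other myeloid and erythroid transcription factor genes, 19 were tested for H2AK119Ub on the trimmed lists, and 7 rose and 3 fell with time, where 24.3% of all genes were called higher and 15.1% lower. Their median was 1.22 points, against 3.13 over all genes. On the deposited lists 16 of 37 rose and 0 fell, where 34.1% of all genes were called higher and 36.5% in either direction. The first of them in list order were Gfi1, Runx3, Erg and Lyl1. On the trimmed lists, mean coverage of Runx3 was 36.7% at 24 h and 0% at 0 h, and that of Lyl1 98.6% at 24 h and 8.33% at 0 h. Gfi1 had 42.0% at 24 h and 61.8% at 0 h, and Erg 15.1% at 24 h and 13.9% at 0 h. Runx3, which acts in several blood lineages, and Lyl1, a relative of TAL1, were called (adjusted p = 1.5e-05 and 2.5e-07 by limma with Benjamini-Hochberg adjustment). Gfi1 and Erg were not called. Runx3, at 0% at 0 h, passed the filter only through 24 h libraries and could only be called as higher.

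For H3K27ac, 2 of 13 of these factors rose and 3 fell on the trimmed lists, where 40.1% of genes were called, and 10 of 27 rose and 0 fell on the deposited lists, where 54.4% of genes were called. At 24 h these factors had H3K27ac at 19 to 28 of 38 genes in a library, against 0 to 2 of the 9 genes above. This difference was not tested.

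The genes that such factors turn on were counted in the same way. Of 7 myeloid effector genes tested for H2AK119Ub on the trimmed lists, 1 rose and 1 fell by limma with Benjamini-Hochberg adjustment, where 39.4% of all genes were called. Elane, a granule protease, rose by 31.2 ± 9.73 points (adjusted p = 0.019), and Adgre1, a macrophage receptor named after its value was seen, fell by 18.0 ± 1.85 points (adjusted p = 8.5e-07). Prtn3, Csf2rb and Cd14 were not called. Of 8 erythroid and megakaryocyte effector genes, 2 rose and 2 fell, against the same share of 39.4%. The adult β-globin genes Hbb-bt and Hbb-bs fell by 74.0 ± 10.5 and 46.4 ± 12.1 points, and both were at 0% at 24 h, against 74.0% and 46.4% at 0 h. Being at 0% at 24 h, they passed the filter only through 0 h libraries and could only be called as lower. They are near-identical copies, so reads may be split between them. Epor and Slc4a1 were not called. These 4 genes were named by list order, and the 2 that rose are not among them. The median member of the erythroid list differed by 17.68 points and that of the myeloid list by 4.78, against 3.13 over all tested genes. Genes that could be called in only 1 direction enter the erythroid median, so no conclusion is drawn from it.

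The genes whose group means were most like a member's over the 24 groups of mark, system, genotype and time are named as a description. For Gata2 they were Gm46866 (Pearson's r = 0.994) and Lhx3 (0.992), for Tal1 Tmem151b (0.996) and Slc17a7 (0.995), and for Cebpa Hspb1 (0.982) and Enho (0.981). For Cebpd they were Wnt10b (0.978) and Proca1 (0.956), and for Nfe2 1600014C23Rik (0.987) and Nfil3 (0.976). For Cebpb they were Ltc4s (0.997) and Cdkl1 (0.997), and for Klf1 Tmem53 and Slc25a35 (0.996 each). Cebpe was nearest to Ercc5 (0.977) and Mmp14 (0.970), and Gfi1b to Socs1 (0.983) and Spen (0.970). The groups share libraries and list lengths, which enter all of these values.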

How the data were processed

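Per the submitters' processing notes, reads were processed with Trimmomatic 0.32, Bowtie2 2.3.4.1, Picard and deepTools 3.5.1, with the build mm10. The deposited files are SEACR peak lists, 1 per library, and their column 4 is the authors' total signal of a peak. The sources used here do not say whether the yeast spike-in was used for scaling, so the signal was used only to rank peaks within a list and as a share (ppm) of the list's autosomal total. Sequencing depth is unknown, so no counting interval is given. The labels call the replicates biological.

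Genes came from the RefSeq table for GRCm38.p6. Covered percent was computed with Python 3.11.15, and fitted with limma 3.58.1 (R 4.3.3; empirical Bayes with trend) as means of 8 groups per mark, over genes that had peaks in 3 or more libraries, with Benjamini-Hochberg adjustment and a threshold of 0.05. Genotype contrasts used deposited lists, and contrasts with time used trimmed lists. A second test was an exact stratified permutation of peak presence. One H3K27me3 library, titled naive with a treatment entry of stimulated, was grouped by its title. The fits were tested on simulated data. The members and lists were chosen with earlier results of these data known. The 9 genes were all named, like genes were the 2 protein-coding genes of highest correlation with windows over 100 kb away, and lists gave up to 4 genes in list order. The H3K27me3 result of 1 list is not reported here.

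Same-numbered libraries did not deviate together on average, so replicate numbers were not used as pairs. Alternatives were deposited or trimmed lists, gene body only, no filter, column 4 share with a pseudocount of 1 ppm, the upper 50% of peaks by highest signal, peak presence, the replicate block, each system alone and leaving out each library. Fits within 1 system on deposited lists, fits without the lists of under 3000 peaks and leaving out libraries on deposited lists were added after seeing the data.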

Additional observations from a re-analysis of the deposited data

Results flagged for a closer look

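Of 19 sets of 4 or 5 values (1 gene in 1 H3K27me3 group of the mb1-cre system), 8 had 1 library far from the rest, and chance gives about 1 such set in 20 for values that are not capped. Coverage is capped at 0 and 100%, and 5 of the 8 stand out only because the other libraries are all at the cap. The sets also share libraries, so this rate cannot be set against the 8. Cebpa had 0% coverage in mb1-cre Xist fl/fl replicate 1 at 0 h, where the other 4 libraries had 100%. Nfe2 had 0% in the same library, against 64.3 to 75.3% in the others. That list was the shortest for H3K27me3, with 1955 peaks.

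Cebpa had 89.9% and Gata2 87.3% in mb1-cre Xist fl/fl replicate 3 at 24 h, where the other 3 libraries had 100% for both genes. In mb1-cre WT cells, Gata2 had 82.5% in replicate 2 at 24 h, against 97.3 to 100%, and 84.8% in replicate 3 at 0 h, against 100%. Cebpe had 14.9% in mb1-cre WT replicate 1 at 24 h and 0% in the other 3 libraries, and that list, with 15150 peaks, was the longest at 24 h. Tal1 had 97.7% in mb1-cre WT replicate 1 at 0 h, against 81.9 to 84.1%.

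For H3K27ac at Gfi1b, the difference between 24 h and 0 h on the deposited lists was lower in TAT-Cre than in mb1-cre cells by its own test, at -37.3 points (limma with Benjamini-Hochberg adjustment, adjusted p = 0.0047). It remained past the threshold whichever library was left out. Gfi1b passed the filter only through 24 h libraries, 6 of mb1-cre and 1 of TAT-Cre cells.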

How the results depend on the processing

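Of 2222 values for single genes under the alternatives, 2157 stayed on their side of the threshold (291 of them uncalled in both fits with another sign), 49 lost the call and 16 gained it. Of 754 counts of called members, 72 moved by more than 1.5 times, and no called value changed its sign. The causes were not tested.

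For H2AK119Ub between times, 5 members were called on the trimmed lists. There, 39.4% of genes were called. On trimmed lists the count was 2 of 8 in TAT-Cre and 2 of 8 in mb1-cre cells alone, against 13.2% and 31.1% of genes. On deposited lists it was 2 of 9 in TAT-Cre and 4 of 9 in mb1-cre cells alone, against 16.5% and 19.6%. Without the lists of under 3000 peaks it was 2 on trimmed and 3 on deposited lists, against 26.9% and 21.4%. By presence of a peak it was 3 on trimmed and 0 on deposited lists, against 29.0% and 11.5%. For H3K27me3 between times, the count of 1, against 2.17% of genes, became 0 under several choices. These were TAT-Cre cells alone (1.42% of genes on trimmed and 0.0791% on deposited lists) and presence (1.30% and 0%). The others were replicate 5 at 24 h (1.26%) and the upper 50% of peaks (1.76%). The count became 2 on deposited lists without those under 3000 peaks (3.37%), with Nfe2 at -22.8 ± 4.0 points (-13.9 ± 7.3 with all lists, not called). Leaving out 1 library gave 1 to 2, the second being Gata2 without TAT-Cre WT replicate 3 at 0 h, at 25.5 points (limma with Benjamini-Hochberg adjustment, adjusted p = 0.044).

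For H3K27ac between times, no member was tested on trimmed lists, and 1 was called on deposited lists, in all cells, in mb1-cre cells alone, by presence, and with any library left out (1 to 1). The share of genes called was 54.4% in all cells, 52.7% in mb1-cre cells alone and 32.2% by presence. The system difference for H3K27ac was likewise 1 on deposited lists (9.64% of genes) and 1 to 1 with a library left out. For H3K27me3 it was 1, Nfe2, on deposited lists without those under 3000 peaks (19.5% of genes), and 0 to 1 with a library left out. It was 0 to 1 for H2AK119Ub, as was the genotype difference of the effect of time, with Cebpb called without TAT-Cre Xist fl/fl replicate 3 at 24 h.

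With the replicate number as a block, 5 members were called for H2AK119Ub and 1 for H3K27me3 between times, against 38.5% and 2.19% of genes. No call on a member changed. Same-numbered libraries of the 2 genotypes had a mean correlation of -0.0223 for H3K27me3 and 0.0425 for H2AK119Ub. Of these pairs, 2 of 14 for H3K27me3 and 3 of 12 for H2AK119Ub were over 0.1. The highest were 0.377 and 0.528. The lists give no depth, so a missing peak in a short list cannot be told from a mark that is absent.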
